A study of Homo sapiens with 8 samples.

Results

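U-937 cells, a human leukemia line of the pro-monocytic type that matures toward monocytes and macrophages when exposed to differentiating agents, were treated for 72 h with 250 µM L-ascorbic acid (LAA, vitamin C) and 1 µM all-trans retinoic acid (ATRA) together, and their RNA was compared with that of cells given the vehicles of both compounds. LAA was dissolved in PBS and ATRA in DMSO, and the vehicle cells received PBS and DMSO. Each group had 2 libraries, and the comparison covers the 14995 genes, of 61125 in the count table, that passed a filter on low counts. The series holds 8 libraries in all, since 2 libraries with ATRA alone and 2 with LAA alone were made in the same way, and these are set beside the pair where they bear on it. All cells were of 1 line, no source used here says whether the libraries of a group came from separate cultures, and p-values therefore measure the spread between libraries, which may be technical.

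ATRA enters the nucleus and binds the retinoic acid receptors RARA, RARB and RARG, which sit on DNA as partners of the retinoid X receptors and switch from repressing to activating nearby genes when the ligand arrives. In myeloid leukemia cells this is known to release a block in maturation: the cells gain surface receptors, lysosomal enzymes and the oxidase of phagocytes, and they turn down MYC, the transcription factor that drives growth and ribosome production. Ascorbate is a reducing agent that keeps the iron of the TET enzymes and of related dioxygenases active, so that it is known as a cofactor in the removal of DNA and histone methylation.

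Levels are given as CPM, counts scaled to a common library size. Estimated counts summed to 19294443 and 20748869 in the LAA+ATRA libraries and to 19646311 and 19541864 in the vehicle libraries, and the 8 libraries ranged between 18462432 and 24166618. Along the leading axis of a principal component analysis (60.7% of the variance) the LAA+ATRA libraries lay at 51.8 and 50.3 and the vehicle libraries at -58.1 and -56.7. On this axis libraries of a group lay close together and the groups far apart. On the next axis (10.4%) the LAA+ATRA libraries lay at -19.6 and -28.3 and the vehicle libraries at 24.7 and 12.5. The median absolute log2 difference between the 2 libraries of a group was 0.204 with LAA+ATRA and 0.128 with vehicle. Transcripts typical of the line were present in both groups, CD33, CD4, PTPRC and SPI1 among them, while MPO, the myeloperoxidase of granulocyte precursors, lay at 0.838 and 0.603 CPM with LAA+ATRA and at 0.433 and 0.436 CPM with vehicle. Of 20 markers of other lineages, 9 had no count in any library and 6 passed the filter. The 20 markers summed to 468 and 466 CPM with LAA+ATRA, against 345 and 359 CPM with vehicle, mostly from NKG7, a granule protein of killer lymphocytes, at 364 and 352 CPM, against 267 and 279 CPM. Their part in the results was not tested.

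The response to the combination reached far across the genome. By edgeR's quasi-likelihood test with Benjamini-Hochberg adjustment, 6701 of 14995 genes, or 44.7%, differed between LAA+ATRA and vehicle at an adjusted p under 0.05. Of these, 3471 were higher (23.1% of the genes tested) and 3230 were lower (21.5%). Scaling between libraries centres the fold changes, so the near balance of rises and falls is not read as a result. Counts called within a gene list are to be read beside these shares. Most changes were modest, with a median absolute log2 fold change of 0.46 over all genes tested. Changes of at least 2-fold, which is 1 on the log2 scale, numbered 1361 upward and 844 downward (1057 and 945 with offsets for transcript length and GC content, 972 and 493 with limma on log2(FPKM + 1)), and changes of at least 8-fold numbered 263 upward and 92 downward. In 6688 of the called genes both LAA+ATRA libraries lay on the same side of both vehicle libraries, and in 13 the libraries overlapped. With 2 libraries a group a call nearly requires such a gap, so this count adds no separate support. The share over all genes tested was not computed. The extremes were often genes that were off in one of the groups: 70 of the called genes had no count in either vehicle library, and 25 had none in either LAA+ATRA library.

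Retinoid-responsive genes were led by TGM2 and CD38. TGM2, transglutaminase 2, a protein crosslinking enzyme long known as a retinoid target of myeloid cells (chr20:38127387-38166578, minus strand, GRCh38), had 125 and 97.9 CPM in the LAA+ATRA libraries, against no count in either vehicle library. With the vehicle group set to a floor of 3 counts over its 2 libraries, TGM2 was at least 1530-fold higher with LAA+ATRA (edgeR adjusted p = 2.94e-09). CD38, the surface enzyme that consumes NAD (chr4:15778275-15853230, plus strand, GRCh38), had 169 and 192 CPM with LAA+ATRA, against 1.68 and 2.13 CPM with vehicle. The groups were far apart and the replicates close, with a log2 fold change of 6.56 ± 0.158 (SE; edgeR adjusted p = 2.14e-10). HIC1, a transcriptional repressor, had 97.8 and 78.6 CPM, against 0.529 and 0.679 CPM with vehicle, a log2 fold change of 7.18 ± 0.269 (adjusted p = 2.94e-09).

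Of 15 retinoid receptors and response genes tested, from a list of 25, 9 rose and 2 fell, and their median log2 fold change was 1.79, beside 0.01 over all genes tested. The median was 2.97 without vehicle replicate 2 and 1.13 with limma on log2(FPKM + 1). DHRS3, which reduces retinaldehyde to retinol and so lowers the supply of retinoic acid, had 183 and 143 CPM with LAA+ATRA, against 8.08 and 10.3 CPM with vehicle. Both LAA+ATRA libraries lay above both vehicle libraries in DHRS3 and likewise in PLAAT4, a small phospholipase named for its retinoid response, at 18.4 and 15.1 CPM, against 0.914 and 1.02 CPM. The receptors themselves moved unequally. RARB, itself a retinoid target, rose to 5.14 and 4.77 CPM with LAA+ATRA, against 0.625 and 0.921 CPM with vehicle (log2 fold change 2.67 ± 0.341, adjusted p = 5.92e-05). RARA had 61.96 and 51.4 CPM, against 50.5 and 49.9 CPM with vehicle, ranges that lay close together (adjusted p = 0.333), and RARG lay at 8.88 and 7.39 CPM, against 11.3 and 11.7 CPM (adjusted p = 0.044). The call for RARG was lost without vehicle replicate 1 or 2, LAA replicate 1 or 2, or LAA+ATRA replicate 2 (adjusted p between 0.0572 and 0.218), and with DESeq2 (0.0812), the replicate block (0.054) and limma without a filter (0.0957). RARG was 1 of the 2 falls.

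RARB is shown by its promoter because retinoic acid receptors are known to bind there. The 250 bases before its start in RefSeq (GRCh38.p14, chr3:25428013-25428262, plus strand) hold a DR5 element, a pair of receptor half-sites in the same orientation with 5 bases between them, which is printed in capitals and begins 53 bases before the start. The element was searched on both strands in relaxed form, in windows that run from 250 bases before to 50 bases after each start. It was found in 22 of 27305 promoters in the table (0.0806%), in 6 of the 10451 promoters that belong to genes tested (0.0574%), and in 3 of 803 promoters of genes called at least 2-fold higher. A match describes letters and not a site in use.
RARB: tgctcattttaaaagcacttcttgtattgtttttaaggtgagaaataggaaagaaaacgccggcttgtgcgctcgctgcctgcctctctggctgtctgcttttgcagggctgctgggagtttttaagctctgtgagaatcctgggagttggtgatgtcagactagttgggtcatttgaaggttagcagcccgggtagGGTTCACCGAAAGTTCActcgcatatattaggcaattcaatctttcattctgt

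**Figure D1:**
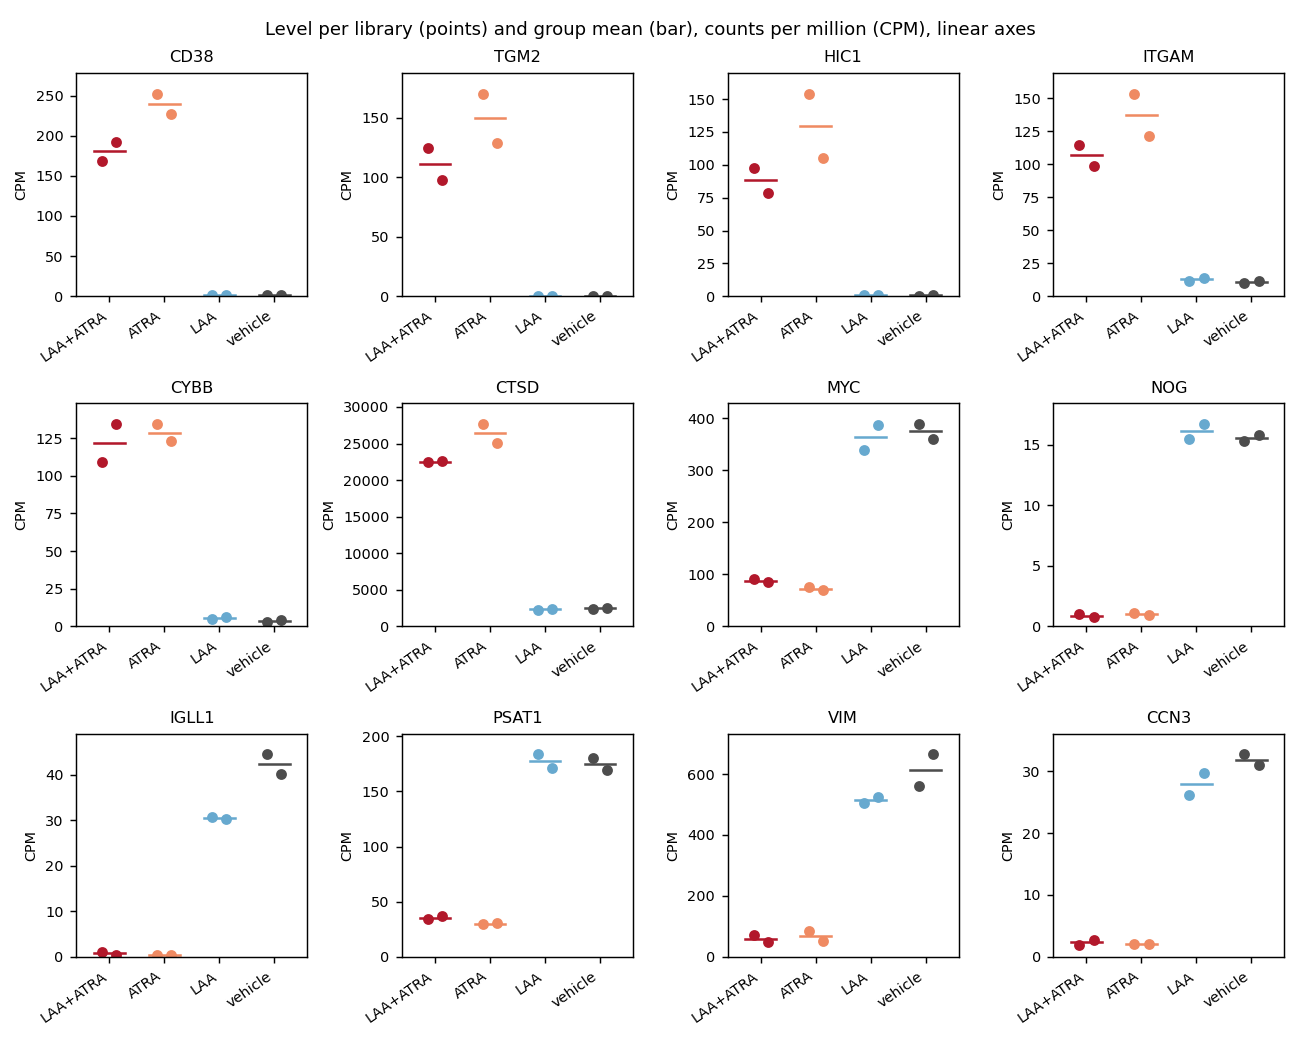
Levels of 12 genes in CPM (y axes, linear and starting at 0), with a point for each library and a bar at the group mean, in LAA+ATRA, ATRA, LAA and vehicle from left to right. In CD38, TGM2, HIC1, ITGAM, CYBB and CTSD both LAA+ATRA libraries lie above both vehicle libraries, and in MYC, NOG, IGLL1, PSAT1, VIM and CCN3 both lie below, for example MYC at 91.9 and 84.7 CPM with LAA+ATRA, against 389.6 and 361 CPM with vehicle.

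NAD metabolism, the list to which CD38 also belongs, moved in both directions: 4 of 12 tested genes rose, CD38 among them, and 3 fell. The share called was 58.3%, beside 44.7% of all genes tested. BST1, the relative of CD38 on the cell surface, had 43.6 and 48.8 CPM, against 30.1 and 26.3 CPM with vehicle. NAMPT, the rate-limiting enzyme that salvages nicotinamide into NAD, fell to 31.5 and 32.9 CPM, against 82.6 and 84.9 CPM (log2 fold change -1.38 ± 0.129, adjusted p = 5.02e-06). PARP1, a nuclear enzyme that spends NAD in DNA repair, fell to 221 and 208 CPM with LAA+ATRA, against 400.5 and 375 CPM with vehicle. In all 3 the groups did not overlap.

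Markers of mature phagocytes rose widely, with exceptions among macrophage genes. All 17 monocyte and macrophage markers tested, of 23 listed, were called, 12 higher and 5 lower, with a median log2 fold change of 1.63. CD68, a lysosomal glycoprotein used to stain macrophages, had 409.9 and 379.6 CPM with LAA+ATRA, against 59.3 and 69.6 CPM with vehicle, and VSIG4, a complement receptor of tissue macrophages, had 9.89 and 16.3 CPM, against 0.0481 and 0 CPM. VSIG4 rested on a single count in the vehicle group, which gives a ratio of 549 with a 95% counting interval from 98.1 to 21700. CD209, a lectin of dendritic cells and macrophages, had 6.26 and 6.23 CPM, against 0 and 0.0969 CPM with vehicle, a ratio of 129 with an interval from 35.4 to 1070, and such intervals cover counting error only. Among the falls, LGALS3, the galectin abundant in macrophages, lay at 7.77 and 8.69 CPM with LAA+ATRA, against 24.3 and 26.8 CPM with vehicle (log2 fold change -1.63 ± 0.163). FCGR2B, the inhibitory Fc receptor, was also lower, at 12.2 and 10.5 CPM, against 18.4 and 24.6 CPM. FCN1, a lectin of blood monocytes, was lower at 11.2 and 6.78 CPM, against 16.4 and 14.5 CPM. That call was lost without vehicle replicate 1 and without LAA+ATRA replicate 2 (adjusted p of 0.0639 and 0.0717), and with limma on the FPKM scale. The 5 falls became 3 when LAA+ATRA replicate 2 or vehicle replicate 1 was left out.

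Neutrophil and granulocyte markers moved more uniformly: 13 of 15 tested rose, 1 fell, and the median log2 fold change was 2.01. S100A9, a calcium-binding protein that fills the neutrophil cytosol, had 63.4 and 58.6 CPM, against 3.56 and 3.296 CPM with vehicle (log2 fold change 4.15 ± 0.176, adjusted p = 8.64e-09). CSF3R, the receptor for granulocyte colony-stimulating factor, had 256 and 229.9 CPM, against 96.05 and 103 CPM. MMP9, a matrix protease of granules, was the exception, at 0.782 and 0.251 CPM, against 1.73 and 2.81 CPM with vehicle (adjusted p = 0.0165), a call lost without vehicle replicate 2 and without LAA+ATRA replicate 2 (adjusted p of 0.12 and 0.11). Of 25 genes listed, 10 did not pass the filter and none of them exceeded 0.223 CPM in any library.

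All 8 tested subunits and regulators of the phagocyte NADPH oxidase, which makes superoxide, rose, with a median log2 fold change of 1.51. The median was 1.1 with offsets for transcript length and GC content. Not all 8 were called without vehicle replicate 1, vehicle replicate 2 or LAA+ATRA replicate 2, and limma on log2(FPKM + 1) without a filter called 7. CYBB, the catalytic membrane subunit, rose to 109 and 135 CPM, against 3.13 and 4.02 CPM with vehicle (log2 fold change 5.09 ± 0.163, adjusted p = 8.49e-10). CYBA, its membrane partner, had 892 and 626 CPM, against 202 and 197 CPM, a wider spread between the LAA+ATRA libraries but still no overlap. NCF4, a cytosolic subunit, had 226 and 197 CPM with LAA+ATRA, against 97.9 and 100.2 CPM with vehicle. NCF1 had 152 and 129 CPM, against 1.73 and 1.600 CPM, and since near-identical copies of NCF1 lie nearby in the genome, the division of its reads is uncertain. CYBB is shown because its promoter holds the core that interferon regulatory factors are known to bind, spelled here as GAAANNGAAA. The window (chrX:37779809-37780058, plus strand, GRCh38.p14) holds it 2 times, on the opposite strand from 225 bases and on the strand of the gene from 86 bases before the start, and capitals mark both.
CYBB: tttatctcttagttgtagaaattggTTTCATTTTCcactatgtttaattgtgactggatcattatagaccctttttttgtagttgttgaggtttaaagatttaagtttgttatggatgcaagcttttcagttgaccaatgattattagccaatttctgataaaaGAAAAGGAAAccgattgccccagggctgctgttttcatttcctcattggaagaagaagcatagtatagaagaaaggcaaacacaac

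The transcription factors of myeloid maturation rose in part: 13 of 24 tested rose and 2 fell, or 1 without vehicle replicate 2. ID1, an inhibitor of helix-loop-helix factors, had 64.03 and 97.03 CPM, against 3.75 and 4.02 CPM with vehicle (log2 fold change 4.37 ± 0.198). CEBPE, needed for the late granulocyte program, had 135 and 112 CPM, against 23.9 and 22.6 CPM, and SPI1, the master factor PU.1, had 419 and 354 CPM, against 149 and 157 CPM. CEBPB, a factor of macrophage and emergency granulocyte formation, rose to 632 and 613 CPM, against 107 and 110.2 CPM with vehicle (log2 fold change 2.52 ± 0.1101, adjusted p = 1.05e-08).

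Genes of the primary granule and of progenitors moved in both directions. Serine proteases of the granule that rose included PRTN3 at 2478 and 2574 CPM, against 494 and 551 CPM with vehicle, and ELANE, neutrophil elastase, at 5858 and 4942 CPM, against 2080.5 and 2129 CPM. MYB, the factor that keeps progenitors dividing, fell to 245 and 293 CPM with LAA+ATRA, against 408 and 397 CPM, and CST7, an inhibitor of granule proteases, to 491 and 442 CPM, against 1197 and 1246 CPM. IGLL1, the surrogate light chain otherwise known from B cell precursors, had the largest fall of any gene that met the rule for named genes: 1.12 and 0.301 CPM with LAA+ATRA, against 44.5 and 40.2 CPM with vehicle (log2 fold change -5.93 ± 0.281, adjusted p = 1.64e-08). Over the 19 tested members, 6 rose and 5 fell (57.9% called, beside 44.7% of all genes tested). Fewer of the falls were called without vehicle replicate 1 or LAA+ATRA replicate 1.

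Surface receptors for adhesion, chemoattractants and opsonized particles were mostly higher. Of 20 integrins and adhesion receptors tested, 12 rose and 2 fell. ITGAM, the alpha chain of CR3 that marks maturing myeloid cells as CD11b, rose to 115 and 98.9 CPM, against 10.1 and 11.5 CPM with vehicle (log2 fold change 3.30 ± 0.154, adjusted p = 1.56e-08). CD44, the hyaluronan receptor, and ITGA4, which holds progenitors in the marrow, fell, to 110.2 and 111 CPM and 218 and 251 CPM, against 188 and 188 CPM and 359 and 331 CPM with vehicle. Of 13 chemoattractant receptors tested, 11 rose and 1 fell. That fall was not called without vehicle replicate 1, either LAA library or either LAA+ATRA library. LTB4R, the receptor of leukotriene B4, had 258 and 239 CPM, against 48.9 and 53.2 CPM, and CXCR4 had 442 and 524 CPM, against 184 and 214 CPM. Of 14 Fc and complement receptors tested, 9 rose and 2 fell. FCER1G, the signalling chain shared by activating Fc receptors, had 135 and 177 CPM, against 36.1 and 42.99 CPM with vehicle, while the receptor FCGR2A fell to 29 and 24.6 CPM, against 48.3 and 52.7 CPM.

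Siglecs, which bind sialic acid, rose in 8 of 13 and fell in 1 of 13 tested. SIGLEC11 had 17.7 and 17.8 CPM with LAA+ATRA, against no count with vehicle, at least 245-fold higher over the same floor, and its near-identical neighbour SIGLEC16 had 16.1 and 17.3 CPM, against 0.0962 and 0.145 CPM, so that the division of reads between the pair is uncertain. SIGLEC6 was the member that fell, at 52.02 and 47.7 CPM with LAA+ATRA, against 89.3 and 92.4 CPM with vehicle. Among 18 cytoplasmic kinases of myeloid signalling, 8 rose and 3 fell. FGR, a kinase of the Src family found in mature phagocytes, rose to 437 and 408 CPM, against 19.7 and 22.7 CPM (log2 fold change 4.32 ± 0.122, adjusted p = 4.23e-10), and its relative FYN fell to 4.36 and 3.47 CPM, against 12.6 and 14.3 CPM with vehicle.

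Soluble mediators moved in both directions. Of 12 cytokines and chemokines tested, 4 rose and 3 fell (58.3% called, beside 44.7% of all genes tested). CXCL8, the neutrophil chemoattractant interleukin-8, had 3.86 and 3.22 CPM, against 0.673 and 0.6301 CPM with vehicle, and IL1RN, the interleukin-1 receptor antagonist, fell to 4.81 and 4.82 CPM, against 10.8 and 13.3 CPM. CCL24, a chemokine outside that list, ranked among the largest rises, with 36.3 and 19.5 CPM, against 0.144 and 0 CPM, although its LAA+ATRA libraries differed by nearly as much as their lower value. In eicosanoid synthesis 5 of 11 tested genes rose and 3 fell, and 1 fell without vehicle replicate 1. PTGS1, cyclooxygenase 1, rose to 682 and 599 CPM, against 73.3 and 79.98 CPM with vehicle, and ALOX5AP, which presents arachidonate to 5-lipoxygenase, to 316 and 359 CPM, against 46.4 and 49.3 CPM. PTGES, which makes prostaglandin E2, had 12.2 and 9.95 CPM, against no count with vehicle, and was at least 152-fold higher.

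Interferon-stimulated genes rose in the main, although no interferon was among the agents given: 18 of 28 tested rose, 3 fell, and the median log2 fold change was 1.11, or 0.62 with limma on log2(FPKM + 1). IRF1, a regulatory factor of the pathway, rose to 124 and 117 CPM, against 16.4 and 14.01 CPM with vehicle (log2 fold change 2.99 ± 0.115, adjusted p = 3.39e-09). OAS1, which senses double-stranded RNA, had 43.7 and 42.4 CPM, against 3.56 and 3.102 CPM, and IFI6 had 261 and 218 CPM, against 49.6 and 46.3 CPM. ISG15, a protein tag of the ubiquitin type, had 44.8 and 44.7 CPM with LAA+ATRA, against 16.9 and 15.8 CPM with vehicle. The 3 that fell were IFITM1, IFIT1 and MX2, the last at 85.4 and 84.3 CPM, against 132 and 125 CPM. IFIT1 had 2.57 and 1.96 CPM, against 3.99 and 5.09 CPM. Its call was lost without vehicle replicate 2 and without LAA+ATRA replicate 2 (adjusted p of 0.0858 and 0.0638). Limma on the FPKM scale called neither MX2 nor IFIT1. In antigen presentation 9 of 19 rose and 1 fell (52.6% called, beside 44.7% of all genes tested). The fall was CIITA, the switch for class II genes, at 1.900 and 2.41 CPM, against 6.83 and 6.398 CPM with vehicle. Limma with the filter did not call CIITA (adjusted p of 0.0567 and 0.0564). HLA-C and HLA-B were higher, but reads shared between class I genes make their division uncertain.

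The core GAAANNGAAA, searched on both strands, stood in 11 of 19 promoters of interferon-stimulated genes in the RefSeq table (57.9%), against 299 of 10451 promoters of genes tested (2.86%). It stood in 6 of 12 that rose and in both of 2 that fell. IFI6 and ISG15 are shown because, of the called members with a promoter that holds it, they had the largest rises (chr1:27672193-27672442, minus strand and chr1:1013247-1013496, plus strand, GRCh38.p14). The capitals mark 3 separate matches in IFI6, and in ISG15 a run in which 2 matches share 4 bases.
IFI6: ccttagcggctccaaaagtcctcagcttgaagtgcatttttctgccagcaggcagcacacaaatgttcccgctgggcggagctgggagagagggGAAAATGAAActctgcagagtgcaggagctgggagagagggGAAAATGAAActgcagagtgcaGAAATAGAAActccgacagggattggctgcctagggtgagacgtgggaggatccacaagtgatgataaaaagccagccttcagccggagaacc
ISG15: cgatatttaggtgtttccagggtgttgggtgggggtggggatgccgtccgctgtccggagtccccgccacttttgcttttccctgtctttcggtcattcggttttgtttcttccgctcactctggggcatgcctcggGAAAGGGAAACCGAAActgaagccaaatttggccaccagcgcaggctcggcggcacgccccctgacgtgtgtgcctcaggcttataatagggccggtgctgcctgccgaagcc

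The lysosome held the largest rise in abundance of the comparison. CTSD, cathepsin D, the main aspartic protease of the lysosome, had 22458 and 22583 CPM with LAA+ATRA, against 2436 and 2540.4 CPM with vehicle (log2 fold change 3.18 ± 0.104, adjusted p = 1.06e-09). GRN, progranulin, had 2211 and 2030.1 CPM, against 396 and 393 CPM, and ATP6V0D1, a subunit of the proton pump that acidifies the lysosome, had 128 and 138 CPM, against 42.4 and 37.2 CPM. TFEB, a transcription factor that drives lysosomal genes, had 89.6 and 74.9 CPM with LAA+ATRA, against 35.4 and 32.04 CPM with vehicle. Over 28 tested lysosomal genes 18 rose and 1 fell, with a median log2 fold change of 0.76. Summed, the list took up 32337 and 32190 CPM, against 7821 and 7719 CPM, of which most was CTSD. Lipid handling rose in part, with 6 of 14 tested genes higher and 2 lower (57.1% called, beside 44.7% of all genes tested). Fewer falls were called without vehicle replicate 1 or LAA+ATRA replicate 2. The scavenger receptor CD36 had 175 and 248 CPM, against 11.1 and 11.4 CPM with vehicle. PLTP, which transfers phospholipid between lipoproteins, had 418 and 364 CPM, against 68.5 and 67.96 CPM.

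MYC and many of its targets fell. MYC had 91.9 and 84.7 CPM with LAA+ATRA, against 389.6 and 361 CPM with vehicle, a log2 fold change of -2.09 ± 0.108 (adjusted p = 3.62e-08) with a wide gap between the groups. Its relative MYCL fell to 1.23 and 1.46 CPM, against 4.95 and 5.43 CPM, and MXI1, an antagonist of MYC, fell too, to 26.8 and 22.9 CPM, against 61.6 and 63.9 CPM with vehicle. Other antagonists rose: MXD4 had 59.5 and 59.8 CPM, against 34.97 and 27.1 CPM, and MXD3 had 43.2 and 30.8 CPM, against 20.6 and 17.4 CPM. Of 37 MYC targets and ribosome biogenesis genes, all tested, 26 fell and none rose by edgeR's test, with a median log2 fold change of -0.51. NOLC1, a nucleolar assembly factor, fell to 123 and 133 CPM, against 331 and 336 CPM (log2 fold change -1.39 ± 0.095). POLR1B, a subunit of RNA polymerase I, fell to 30.4 and 38.3 CPM, against 80.5 and 72.5 CPM, and NPM1, nucleophosmin, to 783 and 876 CPM, against 1382 and 1486 CPM with vehicle.

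MYC is known to bind the E-box CACGTG, a palindrome that reads alike on both strands and that the lysosomal factor TFEB also binds as part of a longer motif. It stood in 16 of 31 promoters of the MYC target list (51.6%) and in 7 of 19 lysosomal promoters (36.8%), against 1085 of 10451 promoters of genes tested (10.4%). Among the members that moved, it stood in 10 of the 22 promoters of MYC targets that fell (45.5%, below the 51.6% of the whole list). It stood in 5 of the 12 promoters of lysosomal genes that rose (41.7%, beside 36.8% of that list). Whether the E-box went with the changes was not tested. Across all genes it stood in 74 of 586 promoters of genes at least 2-fold lower (12.6%) and in 69 of 803 of genes at least 2-fold higher (8.59%). From each list the members with the E-box and the largest change are shown, with the E-box in capitals: PPAT, the first enzyme of purine synthesis (17.5 and 20.5 CPM, against 44.2 and 48.5 CPM with vehicle), and UTP20, of the small ribosomal subunit processome (14.1 and 9.497 CPM, against 24.5 and 23.5 CPM), both lower, then CTSD and ATP6V0D1, both higher. Their windows on GRCh38.p14 are chr4:56435616-56435865, minus strand, chr12:101279855-101280104, plus strand, chr11:1763928-1764177, minus strand and chr16:67481158-67481407, minus strand, each the 250 bases before the start, read 5′ to 3′ along the gene.
PPAT: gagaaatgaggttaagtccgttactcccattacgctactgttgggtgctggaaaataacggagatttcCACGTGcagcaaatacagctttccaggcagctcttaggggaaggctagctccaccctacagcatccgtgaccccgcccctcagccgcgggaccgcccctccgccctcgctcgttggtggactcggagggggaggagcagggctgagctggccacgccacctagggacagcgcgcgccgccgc
UTP20: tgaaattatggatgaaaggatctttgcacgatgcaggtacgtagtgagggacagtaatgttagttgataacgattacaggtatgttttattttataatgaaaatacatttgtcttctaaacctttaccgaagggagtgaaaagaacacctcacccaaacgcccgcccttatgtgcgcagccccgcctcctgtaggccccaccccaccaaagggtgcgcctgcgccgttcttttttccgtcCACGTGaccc
CTSD: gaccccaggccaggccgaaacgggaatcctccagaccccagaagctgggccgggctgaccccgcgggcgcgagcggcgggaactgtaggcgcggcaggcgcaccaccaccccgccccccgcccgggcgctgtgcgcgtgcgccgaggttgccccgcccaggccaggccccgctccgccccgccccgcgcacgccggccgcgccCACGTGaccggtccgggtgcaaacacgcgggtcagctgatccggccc
ATP6V0D1: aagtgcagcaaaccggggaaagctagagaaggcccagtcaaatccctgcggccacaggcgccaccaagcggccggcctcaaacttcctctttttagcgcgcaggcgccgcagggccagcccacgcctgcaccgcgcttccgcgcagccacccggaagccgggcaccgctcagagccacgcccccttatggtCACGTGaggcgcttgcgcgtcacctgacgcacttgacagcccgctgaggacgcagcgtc

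The mRNAs of the ribosome itself were mostly not called. Of 40 cytosolic ribosomal proteins 4 rose and 5 fell, 22.5% called beside 44.7% of all genes, with a median log2 fold change of 0.07. With offsets for transcript length and GC content the median was -0.12 and 13 fell. Without 1 library at a time the number of falls ran between 1 (without vehicle replicate 2) and 9 (without LAA+ATRA replicate 1), and the number of rises between 0 (without vehicle replicate 1) and 9 (without LAA+ATRA replicate 2). Among 25 translation factors 11 fell and 1 rose (48.0% called), and 17 fell with the same offsets. The rise was not called without vehicle replicate 1 or 2, and 2 rose without LAA+ATRA replicate 2. EEF2, the factor that moves the ribosome along, lost more CPM than any other called gene, at 2783 and 2073 CPM with LAA+ATRA, against 4392 and 4288 CPM with vehicle (log2 fold change -0.84 ± 0.156, adjusted p = 0.000924). EIF3E, of the initiation complex, fell to 408 and 379 CPM, against 701 and 678 CPM.

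The deepest median fall of the 44 lists belonged to serine and one-carbon metabolism and the amino acid stress genes driven by ATF4. Of 28 tested, 20 fell and 3 rose, with a median log2 fold change of -0.90. PSAT1, an enzyme of serine synthesis, fell to 33.9 and 36.5 CPM, against 180.0 and 169 CPM with vehicle (log2 fold change -2.31 ± 0.104, adjusted p = 1.31e-08). PHGDH, the first enzyme of that route, fell to 183 and 158 CPM, against 481 and 466 CPM, and MTHFD2, of the mitochondrial folate cycle, to 59.2 and 58.1 CPM, against 169.7 and 152 CPM. SLC7A5, an importer of large amino acids, fell to 79.7 and 88.2 CPM with LAA+ATRA, against 275 and 279 CPM with vehicle. The 3 that rose were ATF5, SLC7A11, which imports cystine, and DDIT4, an inhibitor of mTORC1 signalling, the last at 283 and 133 CPM, against 90.6 and 124 CPM, with a wide spread in the LAA+ATRA group. The call for DDIT4 was lost without vehicle replicate 1 and without LAA+ATRA replicate 1 (adjusted p of 0.0996 and 0.17), with length and GC offsets (0.0655) and with limma on the FPKM scale. Without vehicle replicate 1 the list had 1 rise.

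Other metabolic routes changed piecemeal. Of 22 cholesterol synthesis genes tested 13 fell and 3 rose, and 8 fell without vehicle replicate 2. None of its 3 rises was called without vehicle replicate 1, vehicle replicate 2 or LAA+ATRA replicate 1. The hexokinases, which open glycolysis, moved in opposite directions. HK3, the hexokinase of phagocytes, rose to 273 and 226 CPM, against 5.19 and 5.09 CPM with vehicle (log2 fold change 5.598 ± 0.146, adjusted p = 2.14e-10), while HK2 fell to 46.7 and 32.3 CPM, against 159 and 189 CPM (log2 fold change -2.14 ± 0.183, adjusted p = 2.41e-06). Over 24 glycolytic genes 6 rose and 9 fell, and 5 fell without LAA+ATRA replicate 2. Targets of the hypoxia-inducible factors, which the ascorbate-dependent prolyl hydroxylases are known to restrain, fell in 12 of 22 and rose in 4: PDK1, which blocks pyruvate entry into mitochondria, fell to 298 and 211 CPM, against 753 and 825 CPM, and VEGFA to 53.4 and 43.01 CPM, against 107 and 114 CPM. The 4 rises became 2 without vehicle replicate 1, vehicle replicate 2 or LAA+ATRA replicate 1. The pentose phosphate pathway, which supplies NADPH, rose in 7 of 10 and fell in 2, led by PGD at 1171 and 1259 CPM, against 308 and 319.6 CPM with vehicle.

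Antioxidant and iron genes moved in both directions. Of 28 NRF2 and antioxidant targets 11 rose and 5 fell (57.1% called, beside 44.7% of all genes tested). Fewer falls were called without either vehicle library or LAA+ATRA replicate 1. FTL, the ferritin light chain, rose to 15276 and 18984 CPM, against 4771 and 5301 CPM with vehicle (log2 fold change 1.77 ± 0.121), whereas SOD2, the mitochondrial superoxide dismutase, fell to 59.3 and 55.6 CPM, against 139 and 123 CPM, and PRDX1, a peroxidase, to 131 and 157 CPM, against 349 and 350.2 CPM. ALAS1, the first enzyme of heme synthesis, rose to 457 and 483 CPM with LAA+ATRA, against 104 and 103 CPM with vehicle. It stood in an iron list of which 5 of 17 rose and 5 fell (58.8% called). Without vehicle replicate 1 the falls in the iron list were 2, and without LAA+ATRA replicate 2 they were 3. Of 11 polyamine genes tested 5 rose and 3 fell. The catabolic enzymes SMOX and SAT1 rose, to 139 and 135 CPM and 148 and 143 CPM, against 17.7 and 16.2 CPM and 49.01 and 55.4 CPM with vehicle. OAZ1, OAZ2 and ATP13A2 rose as well, and the synthetic enzymes ODC1, SRM and AMD1 fell, ODC1 to 181 and 189.8 CPM, against 262 and 248 CPM.

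For a compound pair that includes ascorbate, its own transporters and enzymes were read separately. SLC23A2, the sodium-dependent importer of ascorbate, fell to 50.6 and 53.8 CPM, against 75.7 and 78.5 CPM with vehicle (log2 fold change -0.56 ± 0.098, adjusted p = 0.000602). SLC2A3, a glucose transporter that also carries dehydroascorbate, fell to 30.2 and 17.5 CPM, against 55.6 and 77.1 CPM. These were 2 of the falls in a list that moved in both directions. Of its 15 tested genes of ascorbate transport and dehydroascorbate uptake, 4 rose and 3 fell, with a median log2 fold change of 0.18. The share called was 46.7%, beside 44.7% of all genes tested. TET1, the dioxygenase that oxidizes methylcytosine, fell at a low level, with 0.838 and 1.06 CPM with LAA+ATRA, against 5.05 and 4.17 CPM with vehicle (log2 fold change -2.27 ± 0.4298, adjusted p = 0.00104). TET2, at 8.77 and 9.95 CPM, against 8.66 and 6.69 CPM, and TET3, at 51.96 and 52.1 CPM, against 44.2 and 39.3 CPM, did not pass the test (adjusted p = 0.275 and 0.0643). Both were called higher with offsets for length and GC content (adjusted p = 0.0185 and 0.00136), and TET3 also without ATRA replicate 1 or 2 (adjusted p = 0.0297 and 0.0339). Over 23 TET and DNA methylation genes tested 5 rose and 7 fell, and over 27 ascorbate-dependent dioxygenases 2 rose and 12 fell. The shares called, 52.2% and 51.9%, lay near the 44.7% of all genes tested. KDM3A, a histone demethylase, fell to 29.4 and 27.99 CPM, against 51.1 and 63.6 CPM with vehicle, and EGLN2, a prolyl hydroxylase, rose to 185 and 163 CPM, against 97.3 and 96.8 CPM. Both counts of falls depended on vehicle replicate 1: without it 3 of the TET list and 7 of the dioxygenases fell, and 3 of the TET list also fell without LAA+ATRA replicate 1. With offsets for length and GC content the rises became 9 and 6.

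Cell cycle genes moved in both directions. Of 37 replication genes 20 fell and 4 rose, 12 fell without vehicle replicate 1, and 2 rose without either vehicle library. MCM6, of the replicative helicase, fell to 219.8 and 212 CPM, against 377 and 365 CPM with vehicle, and PRIM1, the primase, to 17.99 and 14.6 CPM, against 33.7 and 33.5 CPM, whereas ORC6, of the origin recognition complex, rose to 101 and 99.7 CPM, against 33.6 and 35.97 CPM, and RRM2, of ribonucleotide reductase, to 461 and 475 CPM, against 288 and 291 CPM. On the FPKM scale limma did not call RRM2 (log2 fold change 0.076, adjusted p between 0.66 and 0.776). Of 29 G2 and mitosis genes 7 fell and 4 rose, which is 37.9% called beside 44.7% of all genes. CDC20, the activator of the anaphase-promoting complex, was among the rises at 306 and 248 CPM, against 193 and 187 CPM, and was not called with length and GC offsets (log2 fold change 0.172, adjusted p = 0.0888). MKI67, the proliferation antigen, had 293 and 296 CPM, against 216 and 239 CPM. Its call was lost without vehicle replicate 1 (adjusted p = 0.149), and its direction reversed on the FPKM scale. The 4 rises of the G2 and mitosis list became 2 without vehicle replicate 1, and its 7 falls became 1 without that library, 2 without vehicle replicate 2 and 3 without LAA+ATRA replicate 1, and leaving out either LAA library gave 4. Of 24 G1 cyclins, kinases and inhibitors 8 rose and 6 fell (58.3% called), with a median log2 fold change of 0.07. Inhibitors moved in both directions: CDKN1B fell, and CDKN1A, p21, rose to 35.1 and 29.6 CPM, against 5.29 and 4.56 CPM with vehicle (log2 fold change 2.71 ± 0.154, adjusted p = 7.45e-08), and CDKN2D to 64.1 and 53.6 CPM, against 12.99 and 12.4 CPM. The kinase CDK6 and the cyclin CCND2 fell, to 62.6 and 76.1 CPM and 10.3 and 12.4 CPM, against 206 and 186 CPM and 32.5 and 37.6 CPM with vehicle. Apoptosis regulators rose in 16 of 33 and fell in 7: BAX, which opens the mitochondrial outer membrane, rose to 115 and 94.7 CPM, against 42.8 and 42.3 CPM, and its antagonist BCL2 fell to 12.01 and 15.9 CPM, against 36.9 and 41.2 CPM.

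**Figure D2:**
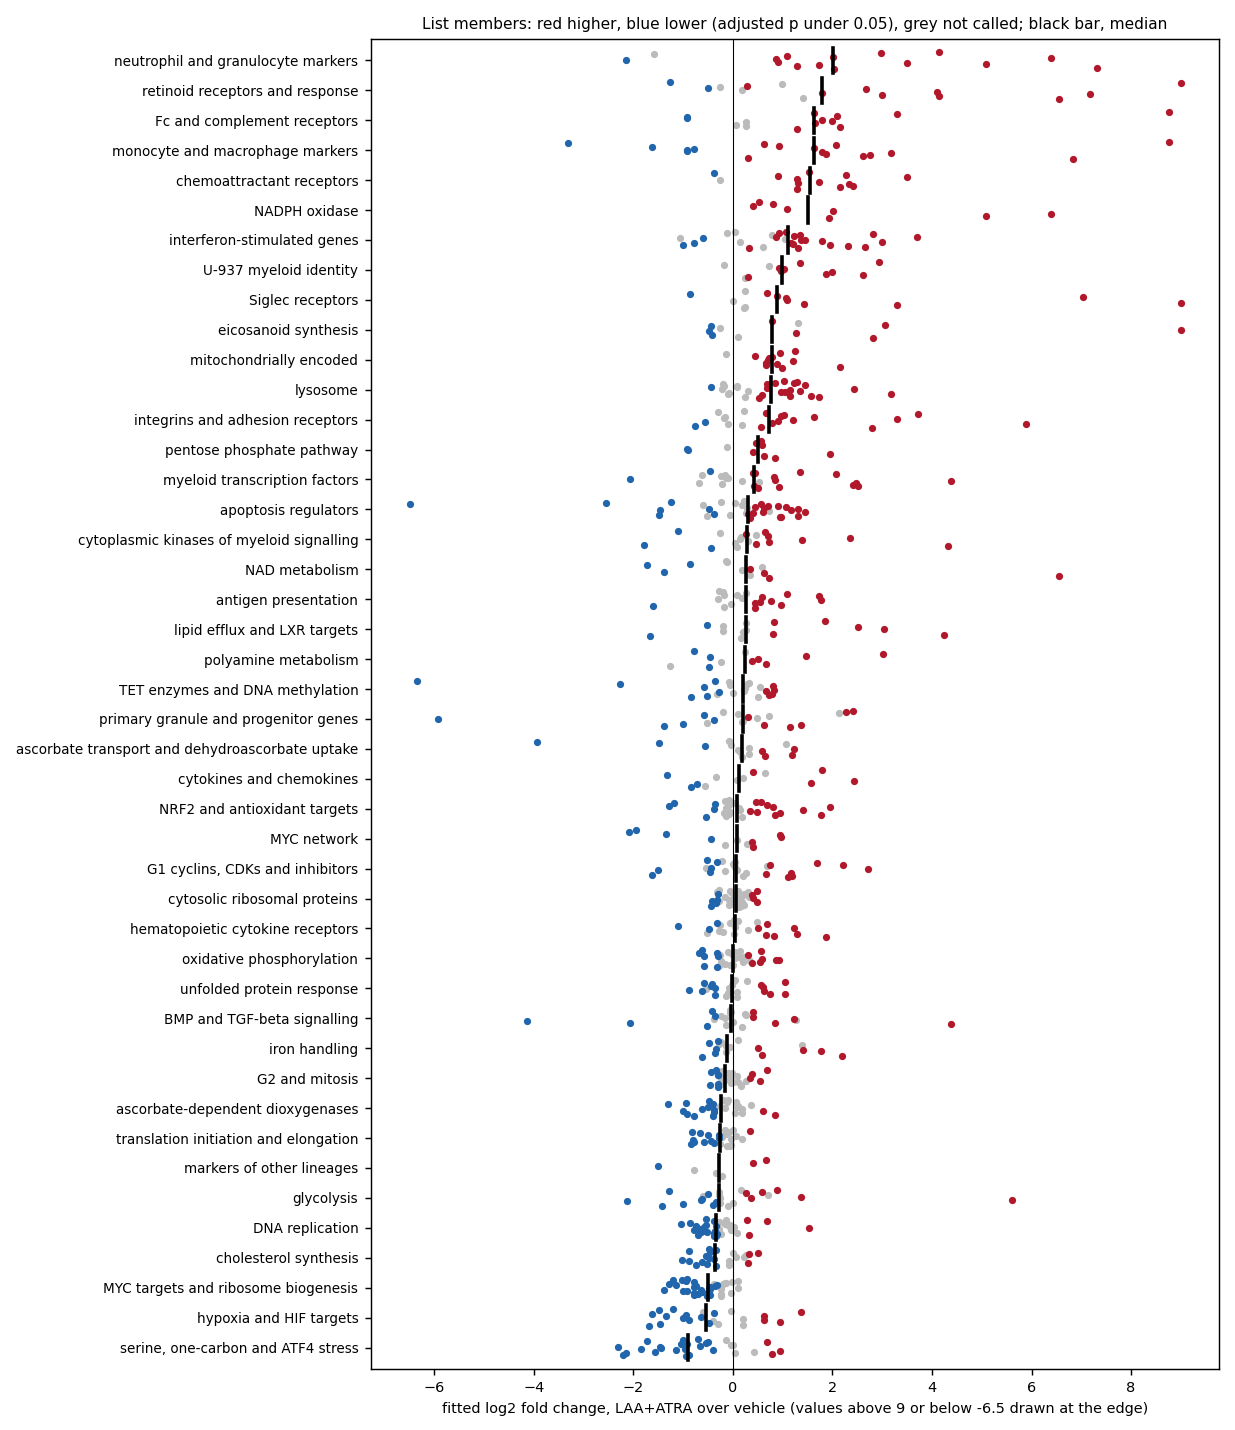
Fitted log2 fold change, LAA+ATRA over vehicle (x axis), of each tested member of 44 gene lists (y axis), ordered by list median (black bar). Red points were higher and blue points lower at an adjusted p under 0.05, and grey points were not called. Values above 9 or below -6.5 are drawn at the edge. Medians run from 2.01 for neutrophil and granulocyte markers to -0.90 for serine, one-carbon and ATF4 stress genes.

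Several of the deepest falls were in secreted and structural proteins. NOG (chr17:56593699-56595590, plus strand, GRCh38), a secreted protein that traps bone morphogenetic proteins, fell to 1.01 and 0.754 CPM, against 15.3 and 15.8 CPM with vehicle (log2 fold change -4.14 ± 0.222, adjusted p = 4.7e-08). ID1, whose rise is given above and which is a known target of those ligands, stood in the same list of BMP and TGF-beta signalling. In that list 5 of 22 rose and 5 fell (45.5% called, beside 44.7% of all genes tested). The falls in that list became 2 without vehicle replicate 1 or LAA+ATRA replicate 1 and 3 without vehicle replicate 2, and the rises became 3 without vehicle replicate 2 or LAA+ATRA replicate 1. PDYN, the precursor of dynorphin peptides, fell to 0.447 and 0.402 CPM, against 7.74 and 7.66 CPM, and CCN3, a matricellular growth regulator, to 1.96 and 2.66 CPM, against 32.9 and 31.02 CPM with vehicle. VIM, the intermediate filament vimentin, fell to 72.5 and 46.7 CPM, against 560.4 and 667 CPM (log2 fold change -3.37 ± 0.231, adjusted p = 4.3e-07). KCNN2, a potassium channel, fell to 2.12 and 1.96 CPM with LAA+ATRA, against 19.05 and 20.7 CPM with vehicle, and LMO1, a transcriptional cofactor known as a leukemia oncogene, to 1.96 and 1.31 CPM, against 14.5 and 14.3 CPM. Others of the 15 largest falls were IGLL1, AK5, DNAAF3, DPYSL3, ADM2, IL17RD, OLFML2A and an entry under the symbol PRORP, which a further gene identifier shares.

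Fold changes moved with transcript length over the whole genome. Among the 98.2% of tested genes with a length in GENCODE 29, split into 4 bins of equal size by length, the bin with the shortest transcripts (median 1350 bases) had a median log2 fold change of 0.28, and the next bins, with medians of 2598, 4046 and 6641 bases, had 0.08, -0.06 and -0.20. Between LAA+ATRA and ATRA alone the same bins had medians of 0.18, 0.05, -0.04 and -0.12. With offsets for length and GC content fitted per library, 7001 genes were called and 47.2% of them were higher, beside 51.8% without the offsets. Medians of the gene lists are given without the offsets, and the cause of the trend was not tested.

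Transcripts encoded in the mitochondrial genome were higher with the combination. Of 13 mRNAs, all tested, 12 rose and none fell by edgeR's test, with a median log2 fold change of 0.78. Together they made up 44795 and 59663 CPM in the LAA+ATRA libraries, against 32631 and 31261 CPM in the vehicle libraries, so that both LAA+ATRA libraries lay above both vehicle libraries but also differed from each other. MT-ND6, of complex I and the only protein gene on the light strand, had 709.9 and 727 CPM, against 302 and 307 CPM (log2 fold change 1.24 ± 0.098, adjusted p = 1.33e-06). MT-CYB, of complex III, had 1528 and 2168 CPM, against 810.1 and 797 CPM. MT-ND4L was the member not called, with 229 and 391 CPM with LAA+ATRA, against 283 and 401 CPM with vehicle, ranges that overlapped. Nuclear genes of oxidative phosphorylation did not rise as a list: 7 of 31 rose and 7 fell (45.2% called, beside 44.7% of all genes), with a median of 0.00. Both counts became 4 without vehicle replicate 2, and the falls became 4 without vehicle replicate 1. With offsets for length and GC content 9 rose and MT-ND4L fell, and 2 rose when log2(FPKM + 1) was tested with limma without a filter on low values.

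LAA+ATRA was next set against each compound alone. Against LAA alone, 5451 genes were called (36.4%), 2754 higher and 2697 lower, and CD38 had 169 and 192 CPM with LAA+ATRA, against 1.29 and 1.42 CPM with LAA. Against ATRA alone, 152 genes were called (1.01%), 74 higher and 78 lower. For the leading genes the ATRA libraries lay nearer to those of the combination than the vehicle libraries did. CD38 had 169 and 192 CPM with LAA+ATRA, against 253 and 227 CPM with ATRA (log2 fold change -0.41 ± 0.108, adjusted p = 0.0808). TGM2 had 125 and 97.9 CPM, against 170.4 and 129 CPM with ATRA (log2 fold change -0.42 ± 0.153, adjusted p = 0.17). MYC had 91.9 and 84.7 CPM, against 75.7 and 69.9 CPM with ATRA (log2 fold change 0.28 ± 0.107, adjusted p = 0.184), and NOG had 1.01 and 0.754 CPM, against 1.11 and 0.906 CPM (log2 fold change -0.19 ± 0.291, adjusted p = 0.811). None of the 4 passed the test against ATRA, which does not show that the levels were alike. CD38 was called lower than with ATRA by DESeq2 (adjusted p = 0.0163), and edgeR without the low-count filter called CD38 (adjusted p = 0.0163) and TGM2 (adjusted p = 0.0159) lower. The count against ATRA depended on single libraries: 6 genes were called without LAA replicate 1 and 6 without LAA replicate 2, 27 and 28 without vehicle replicate 1 and 2, and 47 without LAA+ATRA replicate 1. So did its split, which was 100 higher and 17 lower without LAA+ATRA replicate 2, 99 and 46 without ATRA replicate 1, and 73 and 99 without ATRA replicate 2. With only the 4 libraries compared, 15 were called.

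LBP rose beyond its level with ATRA. LBP, the secreted protein that hands bacterial lipopolysaccharide to CD14, had 14.6 and 16.9 CPM with LAA+ATRA, against 3.09 and 3.19 CPM with ATRA, 0.149 and 0.262 CPM with LAA and 0.0481 and 0.0969 CPM with vehicle. Both LAA+ATRA libraries lay far above both ATRA libraries (log2 fold change 2.32 ± 0.234, adjusted p = 0.00252), a difference not called with limma on log2(FPKM + 0.1) (adjusted p = 0.0944). Against vehicle the group ratio was 218 with a 95% counting interval from 74.4 to 1060, on 3 vehicle counts. In all, 24 genes were called higher with LAA+ATRA than with each of vehicle, ATRA and LAA, of which 20 had a symbol and 6 were mitochondrially encoded. MTND2P28 and MTATP6P1, named as pseudogene copies of MT-ND2 and MT-ATP6, were also among the 24. The division of reads between such copies and the mitochondrial genes is uncertain. The 24 became 1 without either LAA library, 7 and 8 without vehicle replicate 1 and 2, and 15 without ATRA replicate 2 and 14 without LAA+ATRA replicate 1. There were 5 with the replicate block, 5 with only the libraries compared, 75 with DESeq2 and 114 without the low-count filter. CEBPB was among them, with 632 and 613 CPM with LAA+ATRA, against 462 and 388 CPM with ATRA, 136 and 143 CPM with LAA and 107 and 110.2 CPM with vehicle (against ATRA, log2 fold change 0.55 ± 0.104, adjusted p = 0.0402). That call was lost when any library but ATRA replicate 1 was left out (adjusted p between 0.0551 and 0.0891). PTMS, parathymosin, had 150.1 and 144 CPM with LAA+ATRA, against 97.2 and 104 CPM with ATRA, 82.1 and 83 CPM with LAA and 54.6 and 65.4 CPM with vehicle. Against ATRA its adjusted p by edgeR was 0.0433, a call lost when any one library was left out. With offsets for length and GC content edgeR called neither CEBPB nor PTMS against ATRA. Their log2 fold changes were then 0.305 and 0.21 (adjusted p = 0.0685 and 0.303).

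Fewer genes, 12, were called lower with LAA+ATRA than with each of the other groups, and 0 or 1 without either LAA library or either vehicle library. Without LAA+ATRA replicate 1 or 2 they were 6 or 2, and without ATRA replicate 2 they were 23. NLRC3, an intracellular receptor of the NLR family known to restrain innate signalling, had 11.6 and 10.1 CPM with LAA+ATRA, against 19.2 and 17.4 CPM with ATRA, 20.8 and 21.4 CPM with LAA and 25.2 and 24.3 CPM with vehicle (against ATRA, log2 fold change -0.76 ± 0.134, adjusted p = 0.0337), a call lost when any library but ATRA replicate 2 was left out (adjusted p between 0.0557 and 0.0758). PSTPIP2, an adaptor of the actin cytoskeleton, had 11.5 and 12.6 CPM with LAA+ATRA, against 18.4 and 19.4 CPM with ATRA, 20.6 and 21.5 CPM with LAA and 25.6 and 24.4 CPM with vehicle (against ATRA, adjusted p = 0.0433), a call lost when any one library was left out (adjusted p between 0.0558 and 0.126). CR1, complement receptor 1, was higher than vehicle and lower than ATRA, with 32.02 and 28.2 CPM with LAA+ATRA, against 60.7 and 54.6 CPM with ATRA and 9.43 and 9.89 CPM with vehicle (against ATRA, log2 fold change -0.94 ± 0.122, adjusted p = 0.0179). Limma on the FPKM scale did not call CR1 against ATRA (adjusted p between 0.165 and 0.304). GAL, the neuropeptide galanin, fell less than with ATRA: it had 9.05 and 9.798 CPM with LAA+ATRA, against 3.26 and 4.53 CPM with ATRA and 52.04 and 55.98 CPM with vehicle (against ATRA, adjusted p = 0.0179, and 0.0885 with only the libraries compared). EIF3CL was listed at 30.7 and 37.8 CPM with LAA+ATRA, against no count with ATRA and 22.5 and 34.3 CPM with vehicle, and since it is a near-identical copy of EIF3C its reads may be divided differently between libraries.

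**Figure D3:**
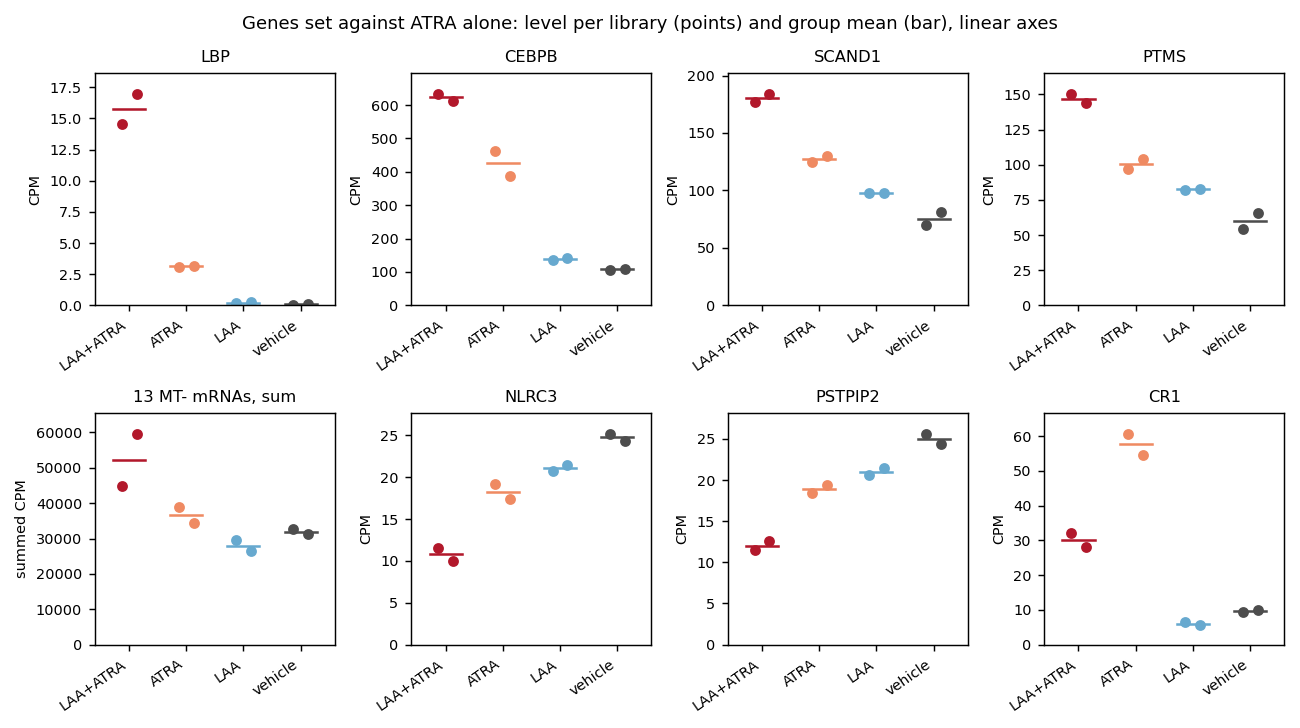
Levels per library (points) and group means (bars) in CPM, linear axes starting at 0, for LBP, CEBPB, SCAND1 and PTMS, the sum of the 13 mitochondrially encoded mRNAs, NLRC3, PSTPIP2 and CR1, in LAA+ATRA, ATRA, LAA and vehicle from left to right. LBP at 14.6 and 16.9 CPM with LAA+ATRA lies above every other library, NLRC3 and PSTPIP2 lie below every other library, and CR1 lies between ATRA and vehicle.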

How the data were processed

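Poly(A) RNA of the 8 libraries was sequenced and quantified by the submitters. Per the submitters' processing notes, Salmon 1.8.0, DESeq2 1.36.0 and GRCh38 were used; the sources used here do not give the annotation release. Deposited tables hold estimated counts per gene and, as a second unit made by the authors, FPKM. Of the estimated counts 16.47% were not whole, and all were rounded before testing.

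The main test was edgeR 4.0.16 in R 4.3.3: TMM scaling, filterByExpr, 4 group means over the 8 libraries, quasi-likelihood F test, Benjamini-Hochberg adjustment over 14995 genes, called at an adjusted p under 0.05. Residual degrees of freedom were 4, with 8.2 added from the prior. CPM are TMM-scaled. A group without counts was set to a floor of 3 counts over its libraries for a lower bound on a ratio, and counting intervals are at 95%. Intervals and floors cover counting error only. The same filter and fit were tested on simulated data.

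The members and lists were chosen with earlier results of these data known. Genes were named by a rule: the 15 largest rises and falls with a symbol, a mean of 5 CPM or more on the higher side and no overlap of libraries; the 10 largest CPM differences each way; the 10 most abundant; up to 4 called members of each list in each direction; a few fixed genes; and the leading genes against each compound alone. It named 332 genes, of which the text describes some, picked after their values were seen. CXCR4, ISG15, MPO, MTHFD2, NCF4, PLAAT4, TFEB and UTP20 lie outside the rule and were likewise chosen after their values were seen. Alternatives were DESeq2 1.42.0, RLE scaling, no filter, a replicate block, fewer libraries, limma 3.58.1 on log2 FPKM (at least 1 FPKM in a group), length and GC offsets, and leaving out each library.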

Additional observations from a re-analysis of the deposited data

How the results depend on the processing

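With 2 libraries a group, counts of called genes rested on single libraries. Against vehicle, 6701 genes were called, between 4526 (without vehicle replicate 1) and 7144 with 1 library left out, and 4334 with limma on log2(FPKM + 1) without a filter. Against LAA, 5451 were called, between 3660 and 5872 with 1 library left out, and 3352 with that limma fit. Against ATRA, 152 were called, between 6 and 172 with 1 library left out. DESeq2 called 705 there and edgeR without the filter 903, the 4 compared libraries alone gave 15, and limma gave 6 on log2(FPKM + 1), 4 on log2(FPKM + 0.1) and 27 without a filter.

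Over the 332 genes named by the rule, 227 kept direction and call against vehicle in every alternative, and 5538 of 5966 values did. The genes with values in the text, nearly all picked from these after their values were seen, held more often, 112 of 130, so the wider count is the one to read. Of the 11 genes followed against ATRA, only MYC did, and MYC was not called there in the main test. Each of those that were called against ATRA lost its call in some alternative.

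Directions reversed, on the log2 scale, in MKI67 (-0.124, -0.128 and -0.124 in the limma fits), MPO (-0.327, limma without a filter), MT-ND4L (-0.574 to 0.198 with 1 library left out, positive at 0.131 without vehicle replicate 2), EIF3CL (-0.002 to 0.603 with 1 library left out), NOG against ATRA (-0.403 to 0.013 likewise), and, with length and GC offsets without and with the block, NKG7 (-0.194 and -0.198) and RARA (-0.134 and -0.135). The cause was not tested.

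Deviations of same-numbered libraries correlated between -0.07 and 0.08, so no strong shift was shared by number. This cannot tell whether the libraries were paired by culture or day, which the labels do not give. With the replicate block 6471 genes were called against vehicle, 5153 against LAA and 30 against ATRA, and 12 against ATRA with length and GC offsets as well.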
